A study of Mus musculus with 12 samples.

Results

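Sertoli cells are the somatic cells of the seminiferous tubule that hold and nourish the developing germ cells, and 10 genes known for these cells were followed across the testes of mice descended from males given a virus against, or carrying, the long non-coding RNA lncRNA5251. The 10 genes were chosen by name, as textbook Sertoli cell genes, out of 20788 genes in the expression table. They are the transcription factors Sox9, Wt1, Gata4 and Dmrt1, the receptor Fshr, the hormone genes Amh, Inhba and Inhbb, and the secreted proteins Clu and Trf.

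Sertoli cells are specified in the fetal gonad, where SOX9 drives the male programme and switches on Amh, which makes the Müllerian ducts regress. In the adult they respond to follicle-stimulating hormone through FSHR and to testosterone, form the blood-testis barrier, secrete inhibin B to restrain the pituitary, and carry iron to germ cells on transferrin. Several of the 10 genes are also used outside Sertoli cells: Gata4 in Leydig cells, Dmrt1 in spermatogonia, and Clu and Trf in many tissues.

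RNA sequencing (RNA-seq) was done on whole testes of F1 males of the ICR strain (written IRC in the labels), in 4 groups of 3 libraries. The F1 mice were 8-week-old sons of males whose testes had been injected with lentivirus at 4 weeks of age and which were then mated with untreated females, as the study's methods say, whereas the series' design text describes the virus as given to the F1 testes. The 3NC group descended from males given the LV3 virus with a control hairpin and the knockdown group from males given a mixture of 3 LV3 viruses with hairpins against lncRNA5251, while the 5NC group descended from males given the empty LV5 virus and the overexpression group from males given LV5 with the full-length lncRNA5251. All 4 groups therefore shared a virus injection in the father, and no group without virus was used here. Whether each library stands for 1 animal is not said in the labels, and the p-values therefore refer to the spread from library to library, which may be technical. In whole testis, fewer Sertoli cells and less RNA per cell cannot be told apart.

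The hairpin sequences are shown because they define the knockdown, and they were searched, on both strands, in the transcripts of all 10 genes (GENCODE vM21). They are printed in the 5′ to 3′ direction as the study lists them, in lower case, and no part is in capitals.
Sh3NC: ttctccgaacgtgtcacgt
shlncRNA5251 KD #1: gctgggacttaatgtccttct
ShlncRNA5251 KD #2: gcatgggcaattcaaacaaat
ShlncRNA5251 KD #3: gcttattatgcatcgtaaacc
The best position in any of the 10 genes had 6 mismatches to the 19-base control hairpin. It had 7, 6 and 7 mismatches to the 21-base hairpins #1, #2 and #3. For comparison, the median gene of 55320 searched had 7 mismatches to the control hairpin and 8, 8 and 9 to the others. Each of the 3 hairpins against lncRNA5251 matched 1 gene without mismatch, Purb, which was at 89.7 ± 11.2 CPM (reads scaled to a common library size; mean ± SD, n = 3) in 3NC and 81.0 ± 2.88 CPM in knockdown, with overlapping libraries. No level of lncRNA5251 itself is given here.

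Each library held 12719699 to 15771655 reads assigned to genes. Libraries 3NC replicate 2 and knockdown replicate 1 stood apart from the other 10: Ptprc, the CD45 gene of white blood cells, was at 94.8 and 71.7 CPM in them and at 2.12 to 6.91 CPM elsewhere. For the 9 of the 10 genes that were tested, the knockdown value is given with and without them, and for other genes with them only. All 10 genes had reads in all 12 libraries, as did 29 of 30 other genes fixed as Sertoli cell markers, the exception being Fgf2, at 0 in 4 libraries. The markers of Leydig, peritubular, endothelial and germ cells were detected as well, so the levels are those of a mixed tissue.

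The level per gene length, in RPKM, the reads per kilobase scaled to library depth, differed by orders of magnitude between the 10 genes. Clu, which encodes the secreted chaperone clusterin, led at 369.1 ± 49.9 RPKM (SD, n = 12 libraries), 36.2 times the next gene. Wt1 followed at 10.2 ± 2.04 RPKM, Dmrt1 at 8.88 ± 0.739 and Trf at 7.45 ± 3.28. Inhbb was at 5.85 ± 0.542 RPKM, Gata4 at 5.55 ± 0.819 and Sox9 at 3.24 ± 0.468. The last 3 were Fshr at 1.48 ± 0.320 RPKM, Amh at 0.810 ± 0.239 and Inhba at 0.119 ± 0.0996. Neighbours in this order had separate ranges over the 12 libraries at only 3 places: between Clu and Wt1, between Sox9 and Fshr, and between Amh and Inhba. Sox9 was also below Gata4 in each of the 12 libraries, although the ranges overlapped. In CPM, which does not correct for length, Clu took 80 to 85.3% of the reads of the 10 genes together.

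**Figure D1:**
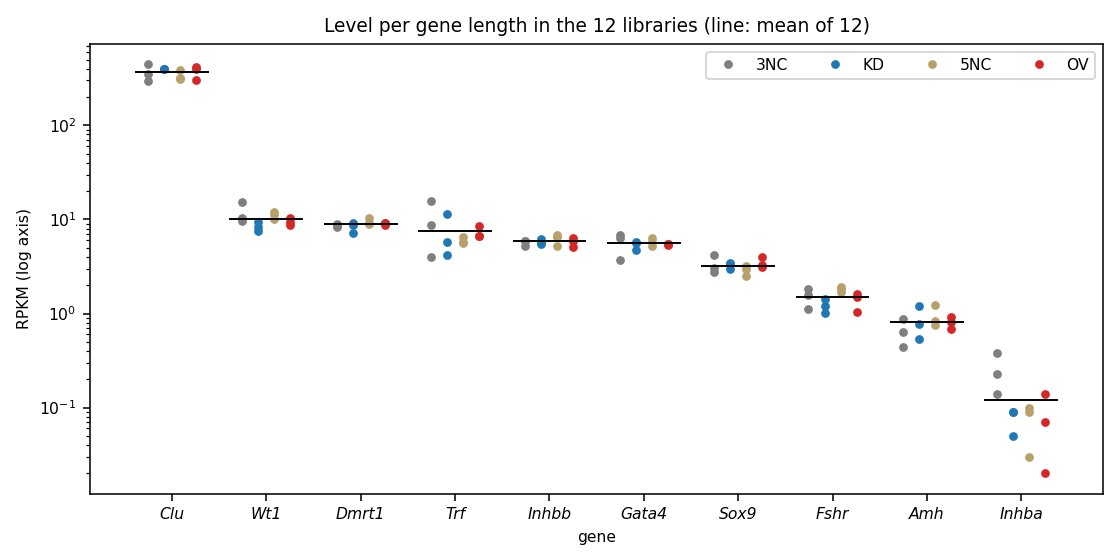
RPKM (vertical log axis) of the 10 Sertoli cell genes in each of the 12 libraries, coloured by group (KD, knockdown; OV, overexpression), with a line at the mean of 12. Clu lies at 299 to 446 RPKM, the middle 6 genes between 2.53 and 15.6, and Inhba, at the bottom, between 0.02 and 0.38.

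None of the 10 genes passed the test in any comparison. Of the 10, 9 had enough reads to be tested and Inhba had not. With edgeR's quasi-likelihood test and Benjamini-Hochberg adjustment over 16388 genes, 0 of the 9 passed an adjusted p of 0.05 between knockdown and 3NC, and 0% of all tested genes did. Between overexpression and 5NC 0 of the 9 passed, against 0.311% of all tested genes. Between the control groups 5NC and 3NC it was again 0 of 9, against 0.128%, and for the difference between the knockdown and overexpression effects 0 of 9, against 0.0244%. At an unadjusted p of 0.05, 1 of the 9 was past the threshold for knockdown, where 5.64% of all genes were, and 0 of 9 in the other comparisons, where 11.9%, 10.8% and 4.63% of all genes were. DESeq2 also called 0 of the 9 in each comparison. Counts of 0 of 9 lay close to these shares.

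By the plain separation of libraries, 1 of the 9 genes (Wt1) was lower in all knockdown than in all 3NC libraries and 0 were higher, where 6.36% and 4.95% of all tested genes were. In overexpression 1 (Fshr) was lower and 1 (Trf) higher, where 10% and 11.3% were, and in 5NC against 3NC 0 were lower or higher, where 6.18% and 6.8% were. The median log2 fold change of the 9 genes was -0.02 for knockdown, where the median of all tested genes was also -0.02. It was -0.04 for overexpression, beside -0.01 over all genes, and 0.02 for 5NC against 3NC, beside -0.02. For knockdown, 7 of 9 genes had a 95% interval that lay wholly within a 2-fold change in either direction, for overexpression 8 of 9, and between the controls 7 of 9. Those intervals were within 2-fold for 79.8, 78.6 and 78.6% of all tested genes. The genes whose intervals reached past 2-fold were Amh, the tested gene with the fewest reads, and Trf, the one with the largest spread, apart from Amh in overexpression, whose interval of -0.92 to 0.65 stayed inside.

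**Figure D2:**
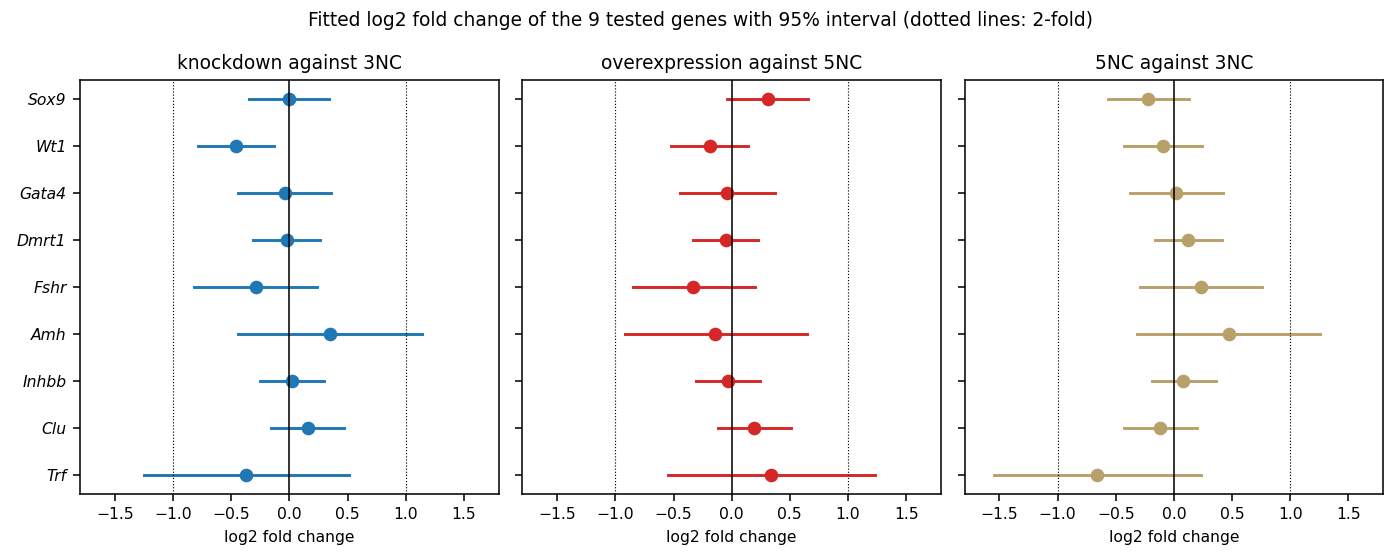
Fitted log2 fold change (horizontal axis, points) of the 9 tested genes with its 95% interval (lines) in 3 comparisons, with dotted lines at a 2-fold change. Only the interval of Wt1 for knockdown, from -0.79 to -0.13, leaves out 0.

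The 4 transcription factors set and keep the identity of the Sertoli cell. WT1, a zinc-finger protein needed to maintain Sertoli cells, gave the lowest unadjusted p of the 9 genes in knockdown. Wt1 (gene ID 22431, chr2:105126529-105173614 in GRCm38, the build called mm10) was at 28.9, 42.5 and 32.0 CPM in the 3NC libraries and at 21.7, 28.1 and 25.4 CPM in knockdown. All 3 knockdown libraries lay below all 3 of 3NC. The log2 fold change was -0.46 (SE 0.15) and its unadjusted p was 0.0113, but the adjusted p by edgeR's quasi-likelihood test was 0.764. Its highest and lowest libraries, 3NC replicate 2 and knockdown replicate 1, are the pair with high Ptprc, and without both the log2 fold change was -0.19 (adjusted p = 0.904). In 5NC, Wt1 was at 29.1, 34.8 and 33.0 CPM and in overexpression at 26.0, 27.8 and 31.2 CPM, which overlap (log2 fold change -0.19, SE 0.15). The knockdown and overexpression effects on Wt1 differed by -0.27 on the log2 scale (95% interval -0.74 to 0.20), and by 0.00 without the pair.

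Sox9 (ID 20682, chr11:112782210-112787757), the central switch of male sex determination, had its highest mean in overexpression. It was at 12.7, 11.5 and 9.95 CPM in 5NC and at 16.4, 13.3 and 12.5 CPM in overexpression, and the lowest overexpression library was just below the highest of 5NC. The log2 fold change was 0.31 (SE 0.16, 95% interval -0.04 to 0.66), with an adjusted p of 0.476 by edgeR, and it ran from 0.18 (without overexpression replicate 1) to 0.40 (without overexpression replicate 3) with 1 library left out. The 3NC libraries were at 11.3, 15.7 and 12.8 CPM and spanned those of knockdown, at 13.5, 13.8 and 12.4 CPM (log2 fold change -0.00, SE 0.16, and 0.12 without the pair of libraries with high Ptprc).

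Gata4 (ID 14463, chr14:63198914-63271712), a zinc-finger partner of these factors that also acts in Leydig cells, was at 21.2, 20.9 and 12.6 CPM in 3NC and 15.2, 18.7 and 19.3 CPM in knockdown. In 5NC it was at 20.5, 16.5 and 18.5 CPM and in overexpression at 18.4, 17.9 and 17.9 CPM. The 3NC libraries alone covered the range of all 12, and both log2 fold changes were -0.04 (SE 0.18). That for knockdown was 0.17 without the high-Ptprc pair and -0.23 without 3NC replicate 3.

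Dmrt1 (ID 50796, chr19:25505618-25604328), which keeps Sertoli cells male and is also made by spermatogonia, varied little. It was at 19.0, 16.1 and 18.8 CPM in 3NC, 14.6, 18.5 and 20.0 CPM in knockdown, 19.2, 21.3 and 18.4 CPM in 5NC, and 18.4, 19.2 and 19.3 CPM in overexpression. All groups overlapped, and the 95% intervals of the log2 fold change were -0.31 to 0.26 for knockdown and -0.33 to 0.23 for overexpression. The knockdown value itself was -0.02, and 0.02 without the high-Ptprc pair. Dmrt1 and Inhbb had the narrowest spread within groups, an SD of 0.15 on the log2 scale, where the median tested gene had 0.21.

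**Figure D3:**
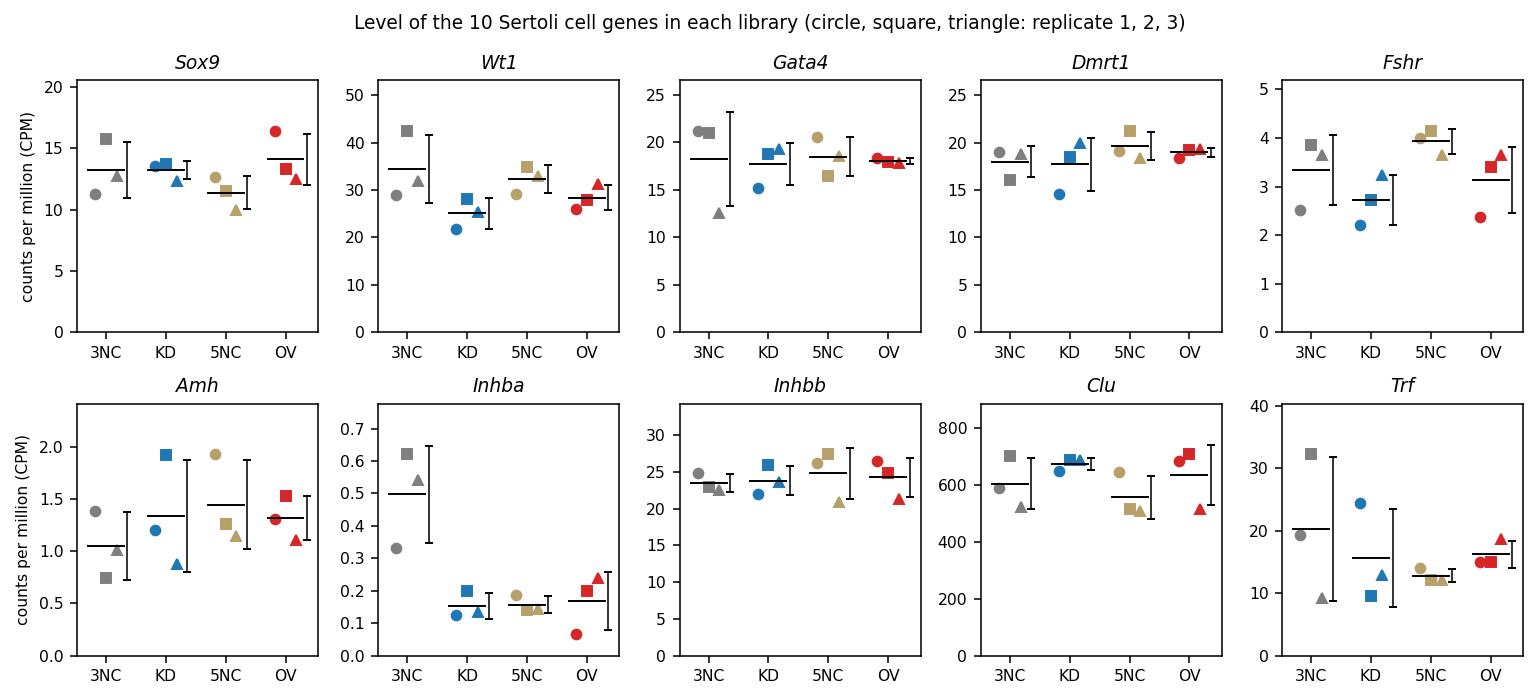
CPM (vertical axes, starting at 0) of each of the 10 genes in each library, by group (KD, knockdown; OV, overexpression); symbols are replicates, horizontal lines the group mean and bars the SD of 3 libraries. The groups overlap for most genes; Wt1 is lower in all KD than in all 3NC libraries, Inhba is highest in the 3NC libraries, and Trf is highest in 3NC replicate 2 and KD replicate 1.

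Fshr (ID 14309, chr17:88984952-89200675) encodes the receptor for follicle-stimulating hormone and in males is a gene of Sertoli cells almost alone. It was at 2.52, 3.85 and 3.65 CPM in 3NC and 2.21, 2.73 and 3.24 CPM in knockdown, where the groups overlapped. It was at 3.99, 4.15 and 3.65 CPM in 5NC and at 2.37, 3.40 and 3.65 CPM in overexpression, where the highest overexpression library sat at the lowest of 5NC without crossing it. The log2 fold changes were -0.29 (SE 0.24) and -0.33 (SE 0.24), with adjusted p of 0.774 and 0.657 by edgeR. The lowest knockdown library and the highest 3NC library of Fshr were the high-Ptprc pair, and without them the first was -0.05. With 1 library left out, the first ran from -0.45 (without 3NC replicate 1) to -0.16 (without knockdown replicate 1). The second was -0.16 without overexpression replicate 1 and -0.38 without 5NC replicate 3. The 95% intervals, at 35 to 64 reads per library, were -0.82 to 0.24 and -0.85 to 0.20.

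The window from 250 bases before to 50 bases after the RefSeq start was at hand for Fshr, Inhba and Inhbb, of the 10 genes. The E-box CACGTG, the letters bound by factors such as USF1 and known from the Fshr promoter, was searched in it because Fshr is the gene here whose restriction to Sertoli cells is best known. The motif reads the same on both strands and no other motif was searched. It occurred in the Fshr window and in neither of the other 2, and in 7.15% of 32851 promoter windows of the same length. The stretch around it, chr17:89200719-89200748 on the minus strand of GRCm38, with the E-box in capitals, ends its motif 55 bases before the start.
Fshr: cctttagtgggtCACGTGactttgctgtcc
The window of Inhbb, the more abundant of the inhibin beta subunit genes, was 64.3% G and C, that of Inhba 47.7% and that of Fshr 40.7%. A lower share was found in 80.4%, 30.8% and 11.4% of all windows.

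The hormone genes are members of the transforming growth factor beta family. Amh (ID 11705, chr10:80805240-80807679), whose product is high in fetal and immature Sertoli cells and falls at puberty, had 12 to 31 reads per library. It was at 1.39, 0.746 and 1.01 CPM in 3NC and 1.20, 1.93 and 0.878 CPM in knockdown, with a log2 fold change of 0.35 (SE 0.36). Single libraries moved this value, which was -0.02 without knockdown replicate 2, 0.15 without 3NC replicate 2, 0.57 without knockdown replicate 3, 0.61 without 3NC replicate 1 and 0.22 without the high-Ptprc pair. In 5NC it was at 1.93, 1.27 and 1.15 CPM and in overexpression at 1.32, 1.53 and 1.11 CPM (log2 fold change -0.14, SE 0.36, and from -0.28 to 0.13 with 1 library left out). The groups overlapped, and for knockdown the interval of -0.44 to 1.14 did not leave out a 2-fold rise.

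Inhbb (ID 16324, chr1:119415463-119422248) encodes the beta subunit of inhibin B, the inhibin of the male, and was the steadiest of the 10 genes, at 20.9 to 27.4 CPM over all libraries. It was at 24.8, 23.0 and 22.6 CPM in 3NC and 21.9, 25.9 and 23.6 CPM in knockdown, and at 26.2, 27.4 and 20.9 CPM in 5NC and 26.5, 24.9 and 21.3 CPM in overexpression. All groups overlapped. The log2 fold changes were 0.02 (SE 0.13) for knockdown (0.06 without the high-Ptprc pair) and -0.03 (SE 0.13) for overexpression.

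Inhba (ID 16323, chr13:16004256-16031609), which encodes the subunit of activin A and inhibin A, was near the limit of detection. It had 5, 10 and 8 reads in the 3NC libraries, 2, 3 and 2 in knockdown, 3, 2 and 2 in 5NC, and 1, 3 and 3 in overexpression. Each 3NC library was above each library of the other groups in reads and in CPM. The RPKM did not follow the reads, since the library with 8 reads had 0.14 RPKM and that with 5 reads 0.23. Summed over libraries and scaled for depth, the ratio of 3NC to knockdown was 3.28 (23 against 7 reads, 95% counting interval 1.36 to 9.06), and that of 3NC to 5NC 3.09 (1.28 to 8.53). The ratio of 5NC to overexpression was 1 (0.3 to 3.35). These intervals cover counting error only. When genes with few reads were kept in the edgeR fit, the log2 fold change for knockdown was -1.64 with an adjusted p of 0.822, and for 5NC against 3NC -1.60 with an adjusted p of 0.413. The 3NC group is shared by both ratios, so they are not separate evidence.

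Clu (ID 12759, chr14:65968483-65981548), by far the most abundant, was at 588, 701 and 523 CPM in 3NC and 648, 686 and 686 CPM in knockdown. It was at 645, 516 and 508 CPM in 5NC and 683, 709 and 514 CPM in overexpression. The means were higher in knockdown and overexpression than in their controls, but the groups overlapped and the log2 fold changes were 0.16 (SE 0.14) and 0.19 (SE 0.14), with adjusted p of 0.782 and 0.663 by edgeR. The first was 0.30 without the high-Ptprc pair. With 1 library left out, it ran from 0.08 (without 3NC replicate 3) to 0.27 (without 3NC replicate 2), and the second from 0.11 to 0.33. Markers of the epididymis, a tissue that also makes clusterin, were measured beside it: the 8 genes summed to 34.7 to 81.6 CPM in 3NC, 14.2 to 310.7 CPM in 5NC, 0.798 to 19.0 CPM in knockdown and 0.986 to 1.27 CPM in overexpression. Crisp1, a secretory gene of the epididymis, made up much of this, at 115.8 ± 115.7 CPM in 5NC and 0.137 ± 0.0590 CPM in overexpression (log2 fold change -9.61, SE 1.85, adjusted p = 0.0668), and at 40.1 ± 18.8 CPM in 3NC and 4.63 ± 7.44 CPM in knockdown (-3.10, SE 1.17, adjusted p = 0.764). Of the 8 markers 4 had enough reads to be tested, through the control groups where they were high, so their direction is not a result, and 0 passed. Spink8 reached 37.5 CPM and Adam7 26.1 CPM, while Lcn8 was at 0 in 12 libraries and Lcn5 in 11. The part of the epididymis in the level of Clu was not tested.

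Trf (ID 22041, chr9:103208876-103230286), the gene of transferrin, was the most variable of the 9 tested genes. It was at 19.3, 32.3 and 9.19 CPM in 3NC and at 24.5, 9.50 and 13.0 CPM in knockdown. Its 2 highest levels were in 3NC replicate 2 and knockdown replicate 1, the libraries with high Ptprc. The SD within groups was 0.58 on the log2 scale, against 0.21 for the median tested gene. The log2 fold change for knockdown was -0.37 (SE 0.40). It was -0.34 without both libraries, 0.13 without the first alone and -0.85 without the second alone, and none of these passed the test (adjusted p from 0.569 to 0.936 by edgeR). In 5NC, Trf was at 14.0, 12.2 and 12.2 CPM and in overexpression at 15.0, 15.0 and 18.7 CPM, each above each 5NC library. The log2 fold change there was 0.34 (SE 0.41, adjusted p = 0.817). For 5NC against 3NC it was -0.66 (SE 0.40), and -0.15 without the 2 libraries.

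The sum of the macrophage markers, Ptprc among them, was highest in the same 2 libraries as Trf. Apart from Ptprc, the single markers are not given by library here. The 9 markers of the list summed to 381.1 CPM in 3NC replicate 2 and 544.3 CPM in knockdown replicate 1, and to 90.8 to 116.6 CPM in the other 10. No marker of the list was at 0 in any library. Of the iron-handling genes, Ftl1, which encodes the ferritin light chain and was picked after its values were seen, was at 285.5 and 216.1 CPM in the same 2 libraries and 68.0 to 103.5 CPM in the others. The 13 iron genes together summed to 975.6 and 990 CPM there, and to 536.7 to 605.8 CPM elsewhere. The part of these other cells in the level of Trf was not tested.

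**Figure D4:**
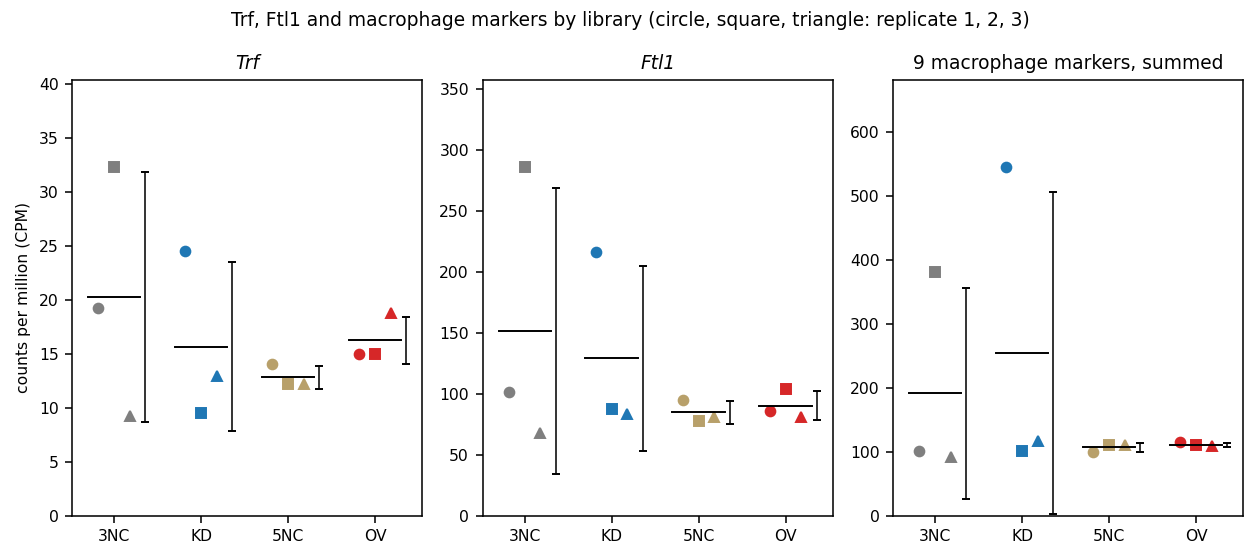
CPM (vertical axes, starting at 0) of Trf, of Ftl1 and of 9 macrophage markers summed, by group and library (KD, knockdown; OV, overexpression), with the group mean as a line and the SD of 3 libraries as a bar. The square of 3NC (replicate 2) and the circle of KD (replicate 1) are the highest in all 3 panels.

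Over the 12 libraries the 9 tested genes did not rise and fall as a group. Of 36 pairs, the median Pearson r of log2 CPM was 0.10, with 3 pairs above 0.5 and 1 below -0.5. Wt1 and Fshr were the closest pair, with r = 0.73 and Spearman's rho = 0.83 over 12 libraries, and r = 0.66 without the 2 libraries farthest from the median of Wt1. With the group means removed, r was 0.68. Sox9 and Clu had r = 0.69 (0.59 over 10 libraries without the 2 farthest in Sox9), and Amh and Inhbb r = 0.56 (0.53 likewise). The lowest r, -0.64, was between Dmrt1 and Trf (Spearman's rho -0.29). It rested on 3NC replicate 2 and knockdown replicate 1, which are also the 2 libraries farthest from the median of Trf, and without them r was 0.06 over 10 libraries. These values describe libraries that share a scaling factor and, within a group, a treatment. Outside the 10, the genes whose log2 CPM followed the mean of the 9 most closely were Jph1 (r = 0.86), Myh3 (r = 0.83), Cbr1 and Sh3tc2 (r = 0.82 each) and Nudt17 (r = 0.81), each over 12 libraries and chosen as the highest of all tested genes.

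Among 30 other Sertoli cell markers, 29 were tested. In knockdown 0 passed in either direction, also at an unadjusted p of 0.05, and their median log2 fold change was -0.01. In overexpression 1 rose and 0 fell, with a median of -0.08. In 5NC against 3NC 0 rose and 1 fell, with a median of 0.08. The gene that passed in both was Cst9, which encodes a cystatin-type protease inhibitor made in the testis. Cst9 was at 7.99, 11.8 and 10.3 CPM in 5NC and at 23.9, 39.4 and 54.0 CPM in overexpression, a log2 fold change of 1.96 (SE 0.29, adjusted p = 0.0206). In 3NC it was at 40.8, 39.4 and 66.1 CPM, so 5NC was also lower than 3NC, by a log2 fold change of -2.28 (SE 0.29, adjusted p = 0.0118). Both comparisons share the 5NC libraries, which held the 3 lowest levels of the 12. Knockdown was at 73.0, 63.4 and 68.1 CPM, with a log2 fold change of 0.48 against 3NC (SE 0.27, adjusted p = 0.764). With 1 library left out, the first call was lost in 5 of 6 cases (adjusted p up to 0.152), and the second in each case that left out a 5NC library (up to 0.109) and in a fit of the 6 libraries alone (0.0527).

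Cst12, another cystatin of the list, did not share this pattern: it was at 53.7 to 66.4 CPM in 5NC and 48.4 to 69.4 CPM in 3NC. Rhox8, a homeobox gene of Sertoli cells, had a log2 fold change of 0.35 in overexpression (adjusted p = 0.309), and Tubb3, a tubulin, -0.49 (adjusted p = 0.265). Amhr2, the receptor of anti-Müllerian hormone, was at 139.2 ± 18.2 CPM in knockdown and 106.4 ± 19.1 CPM in 3NC (log2 fold change 0.39, adjusted p = 0.764). Erbb4, a receptor tyrosine kinase, was at 1.34 ± 0.119 CPM in knockdown and 1.91 ± 0.0541 CPM in 3NC (-0.51, adjusted p = 0.764).

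Downstream of FSHR, cyclic AMP activates protein kinase A. All 17 genes of this pathway list were tested, and 0 passed in knockdown. In overexpression 0 rose and 1 fell, with a median of 0.13. Prkar2b, a regulatory subunit of protein kinase A, was at 20.1, 23.4 and 23.3 CPM in 5NC and at 10.2, 13.1 and 14.1 CPM in overexpression. The overexpression libraries were all below 5NC, and the log2 fold change was -0.84 (SE 0.13, adjusted p = 0.0225). Prkar2b was also lower in every knockdown library, at 12.2, 11.5 and 12.2 CPM, than in each 3NC library, at 16.3, 16.9 and 17.2 CPM, and the log2 fold change of -0.49 (SE 0.13) did not pass (adjusted p = 0.764, unadjusted 0.00284). Each 5NC library was above each library of the other groups, 3NC included. Leaving out 1 library took the overexpression call away in 4 of 6 cases (adjusted p up to 0.156). Pde4a, a phosphodiesterase that breaks down cyclic AMP, had 0.44 in knockdown (adjusted p = 0.764), and Arrb1, which uncouples the receptor, 0.49 in overexpression (adjusted p = 0.13).

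**Figure D5:**
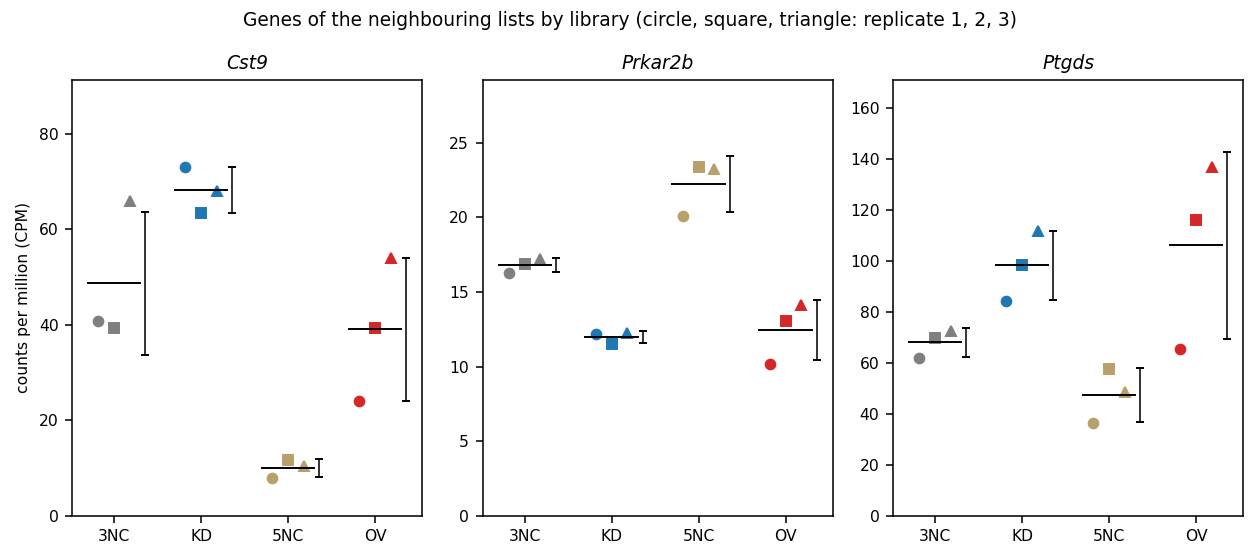
CPM (vertical axes, starting at 0) of Cst9, Prkar2b and Ptgds by group and library (KD, knockdown; OV, overexpression), with the group mean as a line and the SD of 3 libraries as a bar. The 5NC libraries hold the 3 lowest Cst9 levels, and the OV libraries are below the 5NC libraries for Prkar2b.

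Of 21 genes of activin, inhibin and anti-Müllerian hormone signalling, 0 passed in either comparison, with medians of 0.04 in knockdown and -0.02 in overexpression. Inha, the alpha subunit that pairs with the product of Inhbb, was at 46.3 to 66.0 CPM in 3NC and 50.6 to 63.7 CPM in knockdown, and at 67.3 to 89.7 CPM in 5NC and 53.6 to 69.4 CPM in overexpression. The inhibitory Smad6 had the smallest p in overexpression, with a log2 fold change of 0.73 (SE 0.20, adjusted p = 0.167), followed among those that were lower by Smad1 at -0.42 (adjusted p = 0.186). Among those lower in knockdown, Acvr1, a type I receptor, had the smallest p (log2 fold change -0.66, adjusted p = 0.764 by edgeR).

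Of 19 genes of gonadal sex determination, 17 were tested and 0 passed. Ptgds, the prostaglandin D synthase that acts beside SOX9, came closest. It was at 36.2, 57.4 and 48.4 CPM in 5NC and 65.4, 116 and 136.7 CPM in overexpression, all above 5NC, and its log2 fold change was 1.16 (SE 0.24, adjusted p = 0.0906). In knockdown it was at 84.4, 98.4 and 111.8 CPM, all above the 61.8, 69.7 and 72.6 CPM of 3NC (log2 fold change 0.53, SE 0.24, adjusted p = 0.764). Each 5NC library was also below each 3NC library, and the lowest overexpression library lay within the 3NC range. Foxl2, the ovarian counterpart of this programme, was at 0 in 9 of 12 libraries. Fgf9 had -1.02 (SE 0.51) in knockdown. Of 12 tested iron-handling genes and 8 receptors and partners of clusterin and lipoproteins, 0 passed in either comparison.

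The lists of other testis cells are given beside the Sertoli cell genes because the tissue was not sorted. Of 8 Leydig cell genes 0 passed in either comparison, with a median log2 fold change of -0.54 in knockdown and 0.09 in overexpression. At an unadjusted p of 0.05, 3 of 8 were lower in knockdown, where 5.64% of all tested genes were past it in either direction, and 0 of 8 in overexpression. Lhcgr, the receptor for luteinizing hormone, was at 5.88, 7.11 and 4.86 CPM in knockdown and 16.0, 14.8 and 10.3 CPM in 3NC (log2 fold change -1.20, SE 0.30, adjusted p = 0.764). Peritubular myoid genes (6), endothelial genes (6), macrophage genes (9), spermatogonial genes (8), round spermatid genes (8) and elongating spermatid genes (8) likewise had 0 past the test in both comparisons. Round spermatid genes had a median of 0.39 in overexpression, where 5 of 8 were higher at an unadjusted p of 0.05 (11.9% of all tested genes were past it in either direction), and of -0.35 in 5NC against 3NC, where 5 of 8 were lower (10.8%). Both comparisons share the 5NC libraries, so these counts are not separate evidence. The median of the round spermatid genes was 0.08 in knockdown. These values stand beside the calls of Cst9, Prkar2b and Spo11 in overexpression, and their part in those calls was not tested. The medians in knockdown and overexpression were -0.20 and -0.16 for peritubular, -0.26 and 0.20 for endothelial, 0.14 and 0.08 for macrophage, -0.02 and -0.14 for spermatogonial, and 0.03 and 0.18 for elongating spermatid genes. Of 8 spermatocyte genes 1 fell in overexpression, Spo11, which encodes the enzyme that cuts DNA to start meiotic recombination, at 44.3, 39.2 and 46.4 CPM against 56.8, 62.3 and 66.1 CPM in 5NC. The 5NC libraries were the 3 highest of the 12, since 3NC was at 44.7 ± 1.60 CPM and knockdown at 40.5 ± 1.55 CPM. Its log2 fold change was -0.51 (SE 0.09, adjusted p = 0.0452), and the call was lost in 5 of 6 fits that left out 1 library (adjusted p up to 0.253), with no filter on low counts (0.0614), with only the 6 libraries compared (0.0736) and with the replicate block (0.0811).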

How the data were processed

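RNA-seq was measured in 12 F1 testis libraries, 3 in each of 4 groups. Per the study's methods, the authors enriched mRNA with oligo(dT), sequenced it on an Illumina HiSeq instrument, mapped the reads with SOAPaligner (v. 2.20) to reference genes and converted them to RPKM. The labels name the build mm10. How reads shared between genes were split, and whether strand was used, is not stated in the methods or labels. The deposited table holds 2 values per gene and library. The headers call one a read count, and it is treated as an estimated count (expected count) because some deposited values are not whole. The headers call the other only an expression value, and it is taken as the RPKM that the authors' methods describe. Estimates of 17.3% of genes were not whole in at least 1 library, and all counts were rounded; those of the 10 genes were whole. Another 18 per-sample columns, of samples outside this series, and 14 columns of the authors' means were not used.

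Counts were fitted with edgeR 4.0.16 in R 4.3.3 (TMM scaling, filterByExpr, quasi-likelihood F test, 1 coefficient per group, 12 libraries, 8 residual degrees of freedom). Of 20788 genes 16388 were tested, with Benjamini-Hochberg adjustment at 0.05. CPM are scaled by TMM. SEs were taken from the F statistic, and 95% intervals use edgeR's total degrees of freedom. Alternatives were DESeq2 1.42.0 and limma 3.58.1 (on log2(RPKM + 0.1)), other scalings and filters, a replicate block, the 6 libraries of a comparison alone, and leaving out libraries. Numbers T1 to T3 did not pair libraries (5 of 18 same-number pairs had r above 0.1, from -0.64 to 0.39).

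The 10 genes and all lists were chosen with earlier results of these data known. Named from the lists were each gene that passed and, for knockdown and overexpression, the gene of smallest p in each direction (2 for the other Sertoli markers); Cst12, Ftl1, Inha, Foxl2, Fgf2, Lcn5, Lcn8, Spink8, Adam7 and Purb were added after their values were seen. Some genes that this rule names are not reported here. In all, 20630 gene IDs matched RefSeq (GRCm38), the source of coordinates and promoters. The depth of 12719699 to 15771655 reads limits precision for genes with few reads.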

Additional observations from a re-analysis of the deposited data

How the results depend on the processing

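The count of Sertoli cell genes past the threshold was 0 in each alternative run, and the smallest adjusted p any of them reached was 0.27. Over 540 values of single genes in the alternatives, the log2 fold change took the other sign in 55, in 54 of which the value reported was smaller than its SE, and none was past the threshold before or after. Counts of all genes moved more. DESeq2 called 16 genes in knockdown (0 by edgeR), 328 in overexpression (51), 171 for 5NC against 3NC (21) and 42 for the difference of effects (4). limma on log2(RPKM + 0.1) called 82 in overexpression. Without scaling, 33 genes passed for 5NC against 3NC. With only the 6 libraries compared, 107 passed in overexpression and 7 for 5NC against 3NC. The replicate block gave 21, 5 and 2 genes in overexpression, 5NC against 3NC and the difference, and moved no call of the 9 genes. Without 3NC replicate 2 and knockdown replicate 1 together, 45 passed for 5NC against 3NC, and the median of the 9 genes for the difference of effects was 0.10 in place of -0.00. Leaving out 1 library at a time gave 0 to 12 genes in knockdown, 9 to 49 in overexpression, 3 to 35 for 5NC against 3NC and 2 to 10 for the difference, while the median of the 9 genes ran from -0.13 to 0.07 for 5NC against 3NC and from -0.12 to 0.10 for the difference. The sign changes and the moves without 3NC replicate 3 came with no call of the 9 genes, and their cause was not tested. Alternatives for Cst9, Prkar2b and Spo11 were added after seeing the data. In overexpression, Cst9 passed in 8 of 13 (log2 fold change 1.67 to 2.22), Prkar2b in 9 of 13 (-0.93 to -0.71) and Spo11 in 5 of 13 (-0.58 to -0.44), and Cst9 passed in 10 of 14 for 5NC against 3NC (-2.42 to -1.99).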
